A study of Mus musculus with 2 samples.

Results

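The long-chain acyl-CoA synthetase genes (Acsl) and the fatty acid transport protein genes (Slc27a) were examined in fat of mice with and without uncoupling protein 1. The 10 genes were listed by symbol, 5 of each family, and their values were read from all probe sets annotated to them. Of these 10 genes, 8 had a probe set of their own (3 Acsl and 5 Slc27a genes), out of 19938 genes measured in this way. Acsl3 shared its probe set with a second gene and Acsl1 had no probe set named here, so neither was analysed here. All mice were male, of C57BL/6J background and deficient in apolipoprotein E, a ligand for lipoprotein uptake. UCP1/ApoE double-knockout mice (Ucp1-/-;ApoE-/-, DKO) also lacked UCP1, the mitochondrial protein of thermogenic fat cells, whereas ApoE-KO mice (ApoE-/-) were mutant for ApoE alone. The animals were kept at 23 °C, began a high-fat diet at 9 weeks of age and stayed on it for 9 weeks, after which inguinal white adipose tissue, the subcutaneous fat of the groin, was taken. RNA of 3 mice per genotype was pooled and hybridised to 1 Affymetrix array per genotype. The spread between mice and between arrays was therefore not measured, and no difference below has a replicate check or a p-value.

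Fatty acids enter most metabolic routes after they are joined to coenzyme A, an ATP-dependent step that these enzymes catalyse and that holds the fatty acid inside the cell. Acsl proteins act mainly on long-chain fatty acids and differ in the membranes on which they sit, while Slc27a proteins combine this activity, often on very long chains, with a role in fatty acid uptake. In fat, the acyl-CoA they make can be stored as triglyceride, used for membrane lipids or oxidised in mitochondria and peroxisomes.

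Values are linear probe set intensities as deposited. A difference is log2 intensity in the DKO-labelled array minus log2 intensity in the ApoE-KO-labelled array. A gene was taken as above the expression floor when its mean log2 intensity reached the median of all named probe sets, which corresponds to an intensity of 197. This floor is a rule of the analysis and not a detection limit. The median intensities of the arrays were 152 (DKO) and 158 (ApoE-KO). The Ucp1 probe set read 2230 in the DKO-labelled array against 219 in the ApoE-KO-labelled array, a difference of 3.35, which goes against the labels unless the probes lie outside the deleted part of the gene. Apoe, disrupted in all mice, read 502 in the DKO-labelled array against 589 in the ApoE-KO-labelled array. Where the probes lie was not given, so every direction below rests on the labels of the arrays. Mature adipocyte markers were well above the floor in both arrays, at 1527 to 7166 in the DKO-labelled array against 1486 to 6889 in the ApoE-KO-labelled array over 7 genes.

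A single member, Slc27a2, stood apart between the arrays, and the other 7 measured members lay within the middle 90% of all genes above the floor (-0.52 to 0.76). Of all 19938 genes measured, 18686 lay in that range, and 3 of the 7 members were themselves below the floor. Of the 5 members above the floor, 1 had an intensity 2-fold or more higher in the DKO-labelled array, as had 2.79% of all genes above the floor. That member was Slc27a2, which read below the floor in the ApoE-KO-labelled array (161) and passed it only through the DKO-labelled array. Of the same 5, 0 were 2-fold or more lower, as were 0.698% of all genes above the floor. The median difference of the 8 measured members was 0.14, against -0.01 over all genes measured. By any amount, 6 of the 8 read higher in the DKO-labelled array and 2 read lower. Over all 19938 genes measured, 9249 read higher and 10397 lower. Of the 2 lower members, Acsl6 lost or changed its sign in 4 of 5 alternative settings. The 3 members below the floor (Acsl6, Slc27a3 and Slc27a6) did not enter the 2-fold counts.

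**Figure D1:**
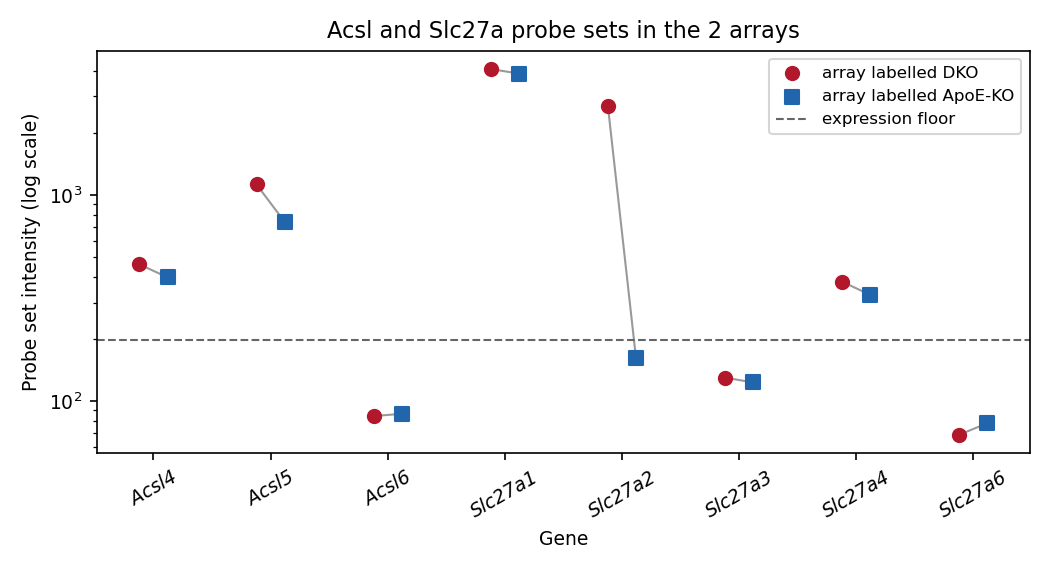
Probe set intensity (log axis) of the 8 measured genes, with the DKO-labelled array as a circle left of the ApoE-KO-labelled array as a square and 1 array per genotype; the dashed line is the expression floor of 197. Slc27a2 lies above the line only in the DKO-labelled array (2695 against 161), and the 2 symbols of each other gene lie close together.

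Slc27a2 encodes the very-long-chain acyl-CoA synthetase of peroxisomes and endoplasmic reticulum, also known as a fatty acid transporter, which is best known from liver and kidney. Its probe set (10475653) read 2695 in the DKO-labelled array against 161 in the ApoE-KO-labelled array, a difference of 4.06 or 16.7-fold. Among the 9891 genes above the floor, this difference had rank 13 by size in either direction and rank 2 among those higher in the DKO-labelled array, the second of which rests on the labels. The lower of the values lay under the floor, so the size of the fold rests on a dim reading, and with the floor in its place the difference was 3.78 or 13.7-fold. Slc27a2 was the only measured member that was on opposite sides of the floor in the 2 arrays.

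**Figure D2:**
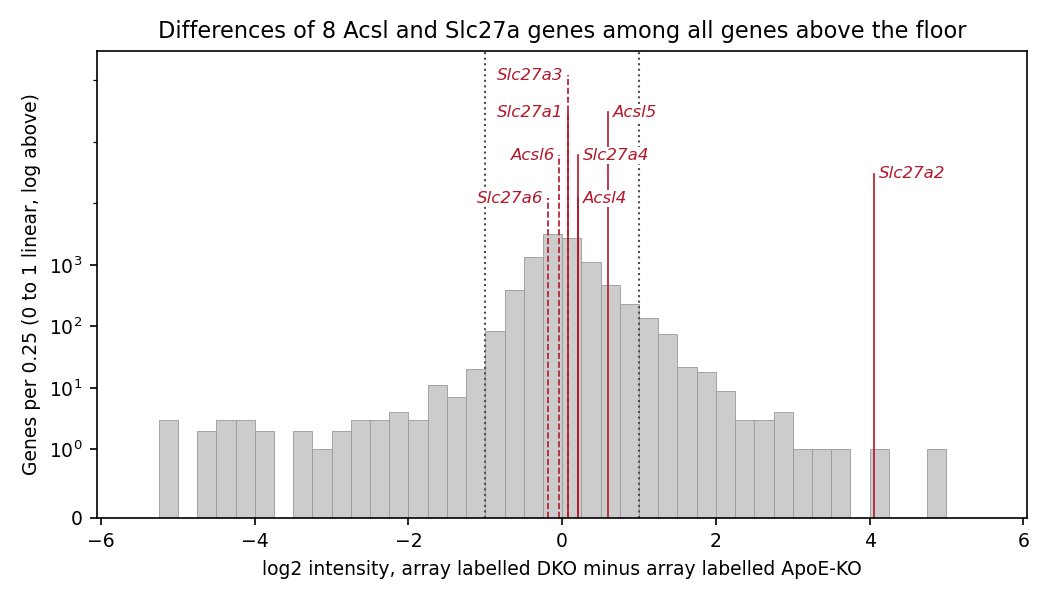
Histogram of the log2 difference, DKO minus ApoE-KO, over the 9891 genes above the floor (grey bars, bins of 0.25, vertical axis linear up to 1 and logarithmic above), with dotted lines at 2-fold and the 8 measured members as red lines whose height has no meaning; dashed red lines are members below the floor. Slc27a2 stands at 4.06 in the sparse right tail, and the other members stand between -0.19 and 0.60 under the main peak.

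The sequences before the annotated starts of 3 members are given to show what lies upstream of the gene that differed most (Slc27a2), of the one with the next largest difference (Acsl5) and of one with a low value in both arrays (Acsl6). Each is the 250 bases before the RefSeq start in build GRCm38.p6, on the gene's strand. Capitals mark matches to AGGTCA on either strand (TGACCT when read on the gene's strand from the opposite one), the half-site shared by many nuclear receptors, the PPAR family among them.
Slc27a2, chr2:126552774-126553023, plus strand: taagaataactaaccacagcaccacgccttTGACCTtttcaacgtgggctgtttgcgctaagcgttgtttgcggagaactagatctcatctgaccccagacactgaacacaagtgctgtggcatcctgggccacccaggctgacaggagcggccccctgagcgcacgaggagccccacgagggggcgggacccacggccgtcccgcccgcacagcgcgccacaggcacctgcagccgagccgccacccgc
Acsl5, chr19:55253119-55253368, plus strand: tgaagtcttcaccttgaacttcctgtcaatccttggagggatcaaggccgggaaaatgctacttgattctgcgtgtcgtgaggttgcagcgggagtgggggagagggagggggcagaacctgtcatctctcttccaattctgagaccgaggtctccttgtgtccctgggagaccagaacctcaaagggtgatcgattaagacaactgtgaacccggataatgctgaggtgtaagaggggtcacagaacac
Acsl6, chr11:54303574-54303823, plus strand, the first of its 3 annotated starts: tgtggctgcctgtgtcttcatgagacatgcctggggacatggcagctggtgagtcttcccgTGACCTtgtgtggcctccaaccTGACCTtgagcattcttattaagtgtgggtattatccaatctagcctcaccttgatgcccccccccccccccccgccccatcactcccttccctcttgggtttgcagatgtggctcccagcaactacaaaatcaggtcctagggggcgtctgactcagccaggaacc
The window of Slc27a2 held 1 match, 220 to 215 bases before the start, and that of Acsl6 held 2, while that of Acsl5 held 0. Over the 7 members searched, 2 of 11 windows had a match, and 14% of the 32851 promoter windows of the same length in the table did. A pair of such half-sites in direct repeat with any 1 base (N) between them, the form that PPAR heterodimers bind and one that always overlaps 2 single matches, was in 0 of the 11 windows and in 0.0335% of all windows. The base composition of the Slc27a2 window was 64.0% G and C, with 19 CpG pairs, against medians of 52.4% and 6 over the table. Among the 11 member windows, 3 had a higher G and C content and 2 more CpG pairs than that of Slc27a2, over ranges of 52.8% to 74.8% and 1 to 30. A match describes the letters only, and nothing about binding was measured.

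Among the other transport proteins, differences were small. Slc27a1, the insulin-responsive transport protein of fat and muscle, read 4071 in the DKO-labelled array against 3869 in the ApoE-KO-labelled array (probe set 10572647), a difference of 0.07. Slc27a4, which is known from intestine and skin and is needed for the skin barrier, read 379 in the DKO-labelled array against 327 in the ApoE-KO-labelled array (probe set 10470751), a difference of 0.21. Both genes were above the floor in both arrays and differed far less than Slc27a2. Slc27a3, an acyl-CoA synthetase of this family with little known transport activity, read 129.8 in the DKO-labelled array against 123 in the ApoE-KO-labelled array (probe set 10499766). Slc27a6, known as a heart form in humans, read 68.6 in the DKO-labelled array against 78.1 in the ApoE-KO-labelled array (probe set 10455901). These last genes lay below the floor in both arrays, with differences of 0.08 and -0.19, and a low reading was not separated from background.

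Among the measured long-chain synthetases, Acsl5 had the largest difference. Acsl5 encodes an enzyme of mitochondrial and endoplasmic reticulum membranes, and its probe set (10464045) read 1122 in the DKO-labelled array against 739.5 in the ApoE-KO-labelled array. The difference was 0.60 or 1.52-fold, in size larger than that of 89.4% of genes above the floor, whatever their direction, but short of 2-fold. At 1.5-fold, the members higher in the DKO-labelled array became Slc27a2 and Acsl5, 2 of 5 above the floor, where 7.57% of all genes above the floor passed. In the other direction 0 members were lower, where 3.73% of all genes above the floor were. Acsl5 passed narrowly, and it fell short of 1.5-fold with quantile normalization (0.56) and with an offset of 50 (0.57). Acsl4, whose enzyme prefers arachidonate and related polyunsaturated fatty acids, read 459.6 in the DKO-labelled array against 398 in the ApoE-KO-labelled array (probe set 10607089), a difference of 0.21. Acsl6, best known from brain, read 84.6 in the DKO-labelled array against 86.7 in the ApoE-KO-labelled array (probe set 10376096), below the floor in both. Its difference of -0.03 has no direction, as its sign did not hold across scalings.

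Other acyl-CoA synthetase genes were set beside the members. For this list and all lists below, the 2-fold counts stand beside shares of all genes above the floor. These shares were 2.79% higher and 0.698% lower in the DKO-labelled array. The lists were chosen with earlier results of these data known, so their counts are a description only. Of 14 such genes, mostly for shorter chains and with Slc27a5 of the transport protein family among them, 7 were above the floor, and 5 of these were higher by 2-fold or more in the DKO-labelled array and 0 lower by as much. Acsm3, a mitochondrial medium-chain synthetase, read 1075 in the DKO-labelled array against 413 in the ApoE-KO-labelled array (1.38). Acsf3, the mitochondrial malonyl-CoA synthetase, read 848 in the DKO-labelled array against 335 in the ApoE-KO-labelled array (1.34). Acss1, the mitochondrial acetyl-CoA synthetase, read 860.1 in the DKO-labelled array against 345 in the ApoE-KO-labelled array (1.32). The remaining genes past 2-fold, named after their values were seen, were Acsf2 (1.13) and Acss2, the acetyl-CoA synthetase of cytosol and nucleus (1.01). The median of all 14 was 0.17, close to that of the Acsl and Slc27a members, and over the 7 above the floor it was 1.13, against 0.21 for the 5 members above the floor.

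**Figure D3:**
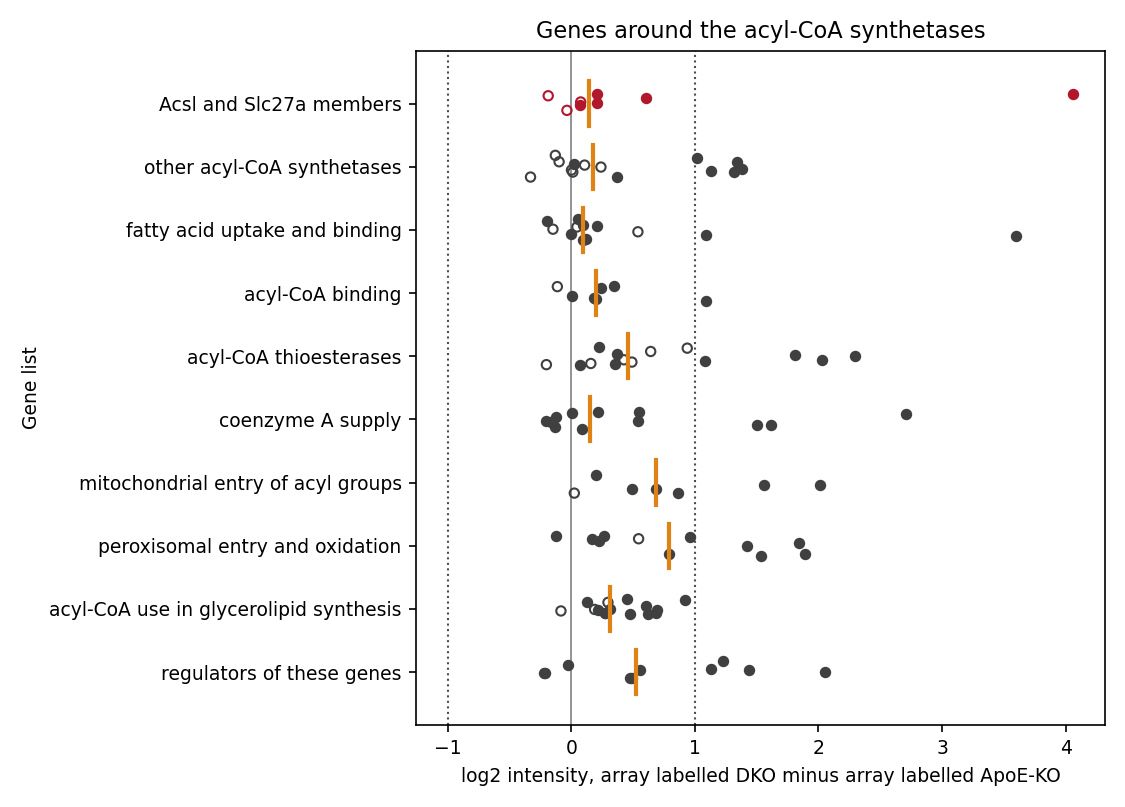
Log2 difference, DKO minus ApoE-KO, of the 8 measured Acsl and Slc27a members (red, top row) and of genes in 9 lists around them (dark grey). Filled symbols are genes above the expression floor and open symbols are genes below it. Orange bars are the median of all measured genes of a row, and dotted lines are at 2-fold. Slc27a2 is the point farthest to the right in the top row, and the rows for mitochondrial entry and peroxisomal oxidation have their medians at 0.69 and 0.79.

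The steps before activation were set beside the members. Of 9 genes for fatty acid uptake and binding above the floor, 2 were higher by 2-fold or more in the DKO-labelled array and 0 lower, with a median of 0.09 over 12 measured. Fabp3, the heart-type binding protein that brown fat also makes, read 4036 in the DKO-labelled array against 334 in the ApoE-KO-labelled array (3.59). Fabp5, a second binding protein, read 625 in the DKO-labelled array against 294 in the ApoE-KO-labelled array (1.09). Lpl, the lipase that frees fatty acids from lipoproteins in the capillary bed, differed by 0.21. Of 12 genes for coenzyme A supply, the other substrate of the reaction, 3 were at least 2-fold higher and 0 lower, with a median of 0.15. They were Pank1, the first enzyme of coenzyme A synthesis (2.71), Slc25a42, which carries coenzyme A into mitochondria (1.62), and Coasy, which completes the synthesis, at 665 in the DKO-labelled array against 235 in the ApoE-KO-labelled array, or 2.83-fold.

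The genes that receive or hydrolyse acyl-CoA followed. Of 6 acyl-CoA-binding genes above the floor, 1 was at least 2-fold higher, Scp2, a lipid carrier that is also a peroxisomal thiolase (1.09), while the main acyl-CoA-binding protein gene Dbi stood at 0.35 and Acbd4 at 0.24. Of 8 acyl-CoA thioesterase genes above the floor, 4 were at least 2-fold higher and 0 lower, with a median of 0.46 over 14 measured. Acot11, an enzyme of brown fat, read 733 in the DKO-labelled array against 149 in the ApoE-KO-labelled array (2.30). Acot2 of mitochondria differed by 2.02 and Acot4 of peroxisomes by 1.81, and Acot13, named after its value was seen, by 1.09. In Acot11 and Acot4, as in Slc27a2, the reading in the ApoE-KO-labelled array lay below the floor.

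The routes to oxidation had the highest medians of the 9 lists over all measured genes, though not over genes above the floor, where the other synthetases led with 1.13. Mitochondrial entry had a median of 0.69 over 7 genes, with 2 of 6 above the floor at least 2-fold higher and 0 lower. These were Slc25a20, the carnitine-acylcarnitine carrier (2.01), and Cpt2, the inner carnitine palmitoyltransferase (1.56), and Crat, the carnitine acetyltransferase, stood at 0.86. Peroxisomal entry and oxidation, where Slc27a2 also acts, had a median of 0.79 over 11 genes, with 4 of 10 above the floor at least 2-fold higher and 0 lower. Ehhadh, the bifunctional enzyme, differed by 1.89, Abcd3, a transporter of fatty acyl groups, by 1.84 and Hacl1, a lyase of alpha-oxidation, by 1.54. Acaa1b, a thiolase named after its value was seen, differed by 1.42, and its reading in the ApoE-KO-labelled array (196.4) lay just below the floor.

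Glycerolipid synthesis, for storage and membrane lipids, had a lower median than mitochondrial entry (0.69) and peroxisomal entry and oxidation (0.79). Its median was higher than that of the members (0.14). Of 12 genes of glycerolipid synthesis above the floor, 0 were at least 2-fold higher or lower, with a median of 0.32 over 15 measured. Lpcat3, which remodels phospholipids, stood at 0.92, Dgat1, the last step of triglyceride synthesis, at 0.69, and Agpat2, an earlier acyltransferase, at 0.69. Among 10 regulators known to act on genes of fatty acid metabolism, 4 were at least 2-fold higher and 0 lower, with a median of 0.52. Ppara, a fatty acid-sensing nuclear receptor whose target genes include acyl-CoA synthetases, read 1009 in the DKO-labelled array against 243 in the ApoE-KO-labelled array (2.06). The coactivator genes Ppargc1a (1.44) and Ppargc1b (1.23) and the receptor gene Esrrg (1.13, named after its value was seen) completed the 4. The reading of Esrrg in the ApoE-KO-labelled array (172) lay below the floor. These lists describe the 2 arrays beside the members, and no link between any gene and a member was measured.

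Markers of cell types were read beside the members because the arrays hold whole tissue, in which fewer cells of a type and less RNA per cell cannot be told apart. Brown and beige adipocyte markers were higher in 8 of 10 genes, with summed intensities of 17493 in the DKO-labelled array against 3349 in the ApoE-KO-labelled array. The counts and sums of this list include Ucp1, the gene disrupted in DKO mice. The Ucp1 reading goes against the labels unless its probes lie outside the deleted part, so it is not an ordinary marker here. Elovl3 (4.90), Ucp1 (3.35) and Cox7a1 (3.23) had the largest differences among these markers. Of 9 that passed the floor, 7 were higher by 2-fold or more. Elovl3 and Dio2 read below the floor in the ApoE-KO-labelled array (67.2 and 121) and passed it only through the DKO-labelled array. Prdm16 (0.13), Tbx1 (-0.05) and Tmem26 (-0.23, below the floor) differed little. Mature adipocyte markers had a median of 0.04 over 7 genes, with Pparg at 0.47, Adipoq at -0.12 and Retn at -0.12. Slc27a2 was thus measured beside a higher level of most brown and beige markers and a nearly equal level of mature adipocyte markers. The part of either in the Slc27a2 difference was not tested.

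Skeletal muscle markers went the other way. All 16 were lower in the DKO-labelled array, with summed intensities of 2274 in the DKO-labelled array against 37368 in the ApoE-KO-labelled array, and 2 against 15 of them reached the floor. The largest differences were those of Atp2a1 (-5.25), Myh4 (-5.22) and Actn3 (-4.71). Muscle also expresses Slc27a1, Slc27a4 and several Acsl genes, so their readings in the ApoE-KO-labelled array were taken beside muscle transcripts, whose part in those differences was not tested. Liver and kidney markers, read because Slc27a2 is abundant there, had summed intensities of 1639 in the DKO-labelled array against 1079 in the ApoE-KO-labelled array over 7 genes. Of these, 5 were higher, 2 lay at or above the floor in the DKO-labelled array and 1 in the ApoE-KO-labelled array. Alb, the serum albumin gene, read 837 in the DKO-labelled array against 417 in the ApoE-KO-labelled array (1.01) and Apoa2 differed by 0.58, while Ttr, Apoc3, Umod, Slc34a1 and Lrp2 were below the floor in both arrays. The part of such transcripts in the Slc27a2 difference was not tested. Of the lists for other cells of the tissue, those of macrophages (median -0.54), B cells (-1.11), T cells (-0.64) and fibroblasts and progenitors (-0.77) had all their measured genes lower in the DKO-labelled array. Those of endothelium (0.02) and skin and mammary epithelium (0.22) had medians closer to 0. The neuron and Schwann cell list had a median of -0.04 over 4 genes, but of the 2 above the floor S100b read 429 in the DKO-labelled array against 121 in the ApoE-KO-labelled array (1.83) and Sox10 differed by -0.12.

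**Figure D4:**
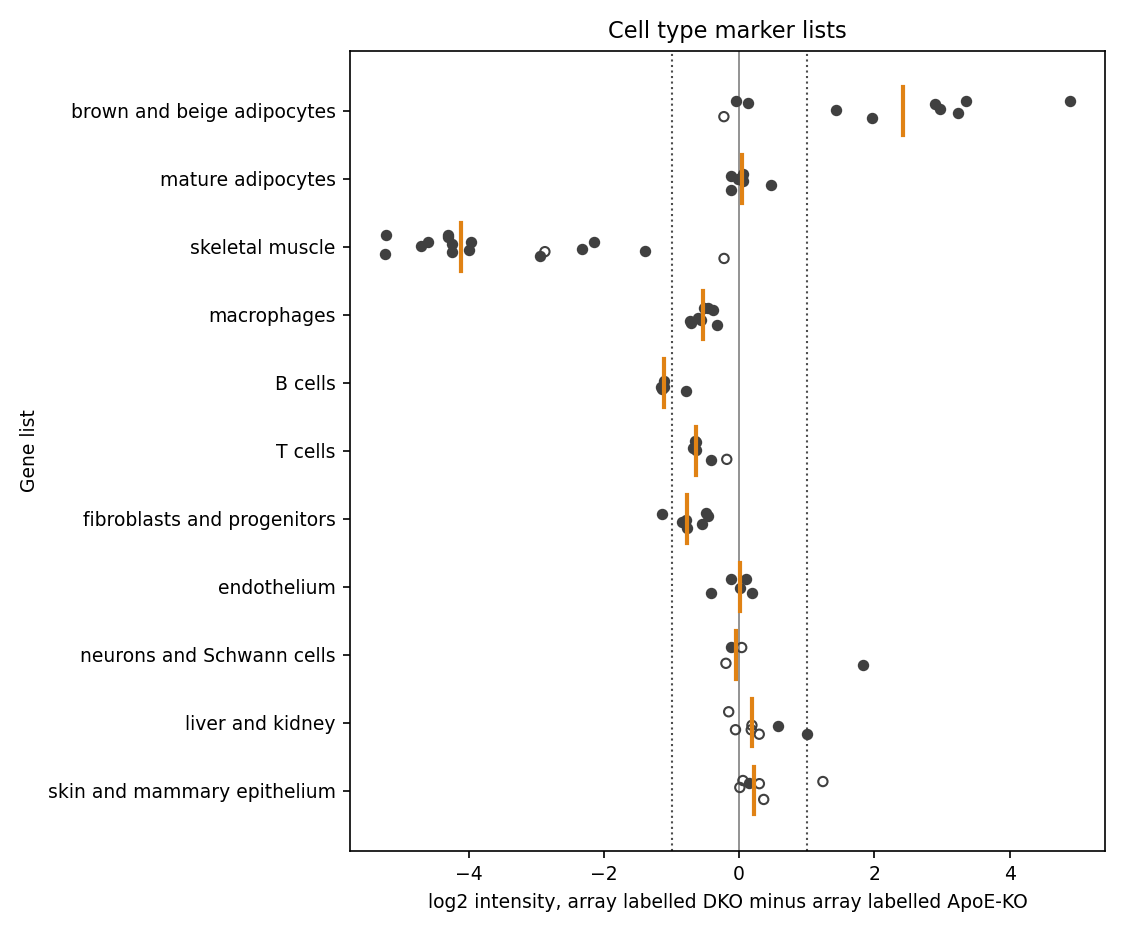
Log2 difference, DKO minus ApoE-KO, of each gene in 11 cell type marker lists, with filled symbols for genes above the expression floor, open symbols for genes below it, orange bars for list medians and dotted lines at 2-fold. Brown and beige markers extend to 4.90 on the right, all skeletal muscle markers lie left of 0, and mature adipocyte markers lie near 0.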

How the data were processed

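Expression was measured on 2 Affymetrix arrays, 1 per genotype, each with pooled RNA of 3 mice. Per the labels' protocols, RNA was isolated with Trizol and fragmented biotin-labelled DNA was hybridised. The authors deposited 1 linear intensity per probe set and array (35557 probe sets, 3.55 to 23636), whose background correction, summarisation and scaling are not stated in those labels. The unit of the deposited intensity was inferred from its range.

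Log2 was taken without an offset, in Python 3.11.15 with pandas 2.3.3. Probe sets were named by the platform annotation: 21789 had 1 symbol, 1621 had several and were not used, and 12147 had none here. By Entrez identifier, 21698 matched RefSeq genes of GRCm38.p6, which changed 0 symbols. A gene with several probe sets was represented by the one with the highest mean, and each member had 1. The floor was percentile 50 of the mean log2 intensity. No test was possible with a single array per genotype. All members were named, with Ucp1, Apoe and up to 3 genes above the floor with the largest absolute differences from each list. Upstream sequences came from the RefSeq promoter table, none was used for Slc27a6, and protein sequences were not used here. The members and lists were chosen with earlier results of these data known, and some genes are in more than 1 list. Alternatives were quantile normalization, median centring, loess (span 0.4), an offset of 50, the mean of probe sets, low values set to the floor, and other floors and fold thresholds. The calculation was tested on simulated data, where differences large beside the noise were added to genes well above the floor. That run checked the code only, and it held no added difference in a gene that starts below the floor, as Slc27a2 does.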

Additional observations from a re-analysis of the deposited data

How the results depend on the processing

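Slc27a2 kept a difference between 3.70 and 4.11 under the 5 alternatives of scaling, offset and floor value. Each member had 1 probe set, so the mean of probe sets could not move it. The median of members was 0.14, against 0.21 over members above the floor and 0.63 as a mean. Acsl5 stood between 0.56 and 0.65. The sign of Acsl6 was kept in 1 of 5 alternatives and those of Slc27a3 and Slc27a6 in 4 of 5, where low values set to the floor gave 0. The count of members at least 2-fold higher was 1 and became 2 at 1.5-fold, a looser rule that can add members but not remove them. Over all genes, 276 were at least 2-fold higher (749 at 1.5-fold and 52 at 3-fold) and 69 lower (369 and 38, with 105 at no floor and 26 at the floor of percentile 75). All 9 list medians around the members stayed above 0 in the alternatives run, but with low values set to the floor that of the thioesterases was 0.19 in place of 0.46 and that of the other synthetases 0.01 in place of 0.17. No paired analysis was possible because each genotype had 1 array. The number of arrays limits the precision of every value.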

Other observations

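The genes next to Slc27a2 on its chromosome were read after its value had been seen. Of the 3 measured genes on each side in RefSeq order, the nearest were Atp8b4 (-0.58, below the floor) and Hdc, the histidine decarboxylase gene (0.03, below the floor). Dtwd1 stood at 0.12, Fgf7 at -0.35, Gabpb1 at -0.11 and Usp8 at 0.38. None of these 6 genes was 2-fold higher or lower, and their readings lay between 145 and 1269.6 in the DKO-labelled array and between 156 and 973 in the ApoE-KO-labelled array.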
